A study of Mus musculus with 3 samples.

Results

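The non-collagen cartilage matrix genes described here are 10 genes taken by name: Acan, Hapln1, Matn1, Matn3, Mia, Comp, Cilp, Ucma, Snorc and Prg4. Every probe set whose only platform symbol is one of them was read. This gave 15 probe sets of the 45101 on the array, and 10 genes of the 18193 with a probe set of their own. Hapln1 had 4 probe sets, Matn3 and Ucma had 2 each, and the other genes had 1.

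The cells came from the femurs and tibiae of C57BL/6 mice, freed from bone fragments with collagenase, and the labels call them endosteal, the inner lining of bone. Cells carrying CD45 (blood), CD31 (endothelium) or Ter119 (erythroid) were removed from all of them, and the rest were sorted by PDGFRa, a growth factor receptor of mesenchymal cells, and Sca-1, a surface antigen common on progenitor cells. The sort gave PDGFRa(+) Sca-1(+), PDGFRa(+) Sca-1(-) and PDGFRa(-) Sca-1(-) cells. RNA of each population was amplified with a two-cycle labelling assay and hybridised to 1 Affymetrix array, so there are 3 arrays and no replicates. The sources used here do not give age, sex or how many animals were pooled, if any. With 1 array a population, no p-value or SD can be given, and no ratio below was checked in a replicate; the number of arrays sets how precise the values are.

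Cartilage matrix is a collagen network filled with aggrecan, the proteoglycan encoded by Acan, whose chondroitin sulfate chains hold water. Link protein, encoded by Hapln1, ties aggrecan to hyaluronan. Matrilins (Matn1, Matn3) and COMP (Comp) are oligomeric adaptors that bridge collagen fibrils and proteoglycans. The other genes encode a small secreted chondrocyte protein (Mia), a transmembrane proteoglycan of chondrocytes (Snorc), a Gla-rich protein known from early growth plate cartilage (Ucma), a matrix protein of articular cartilage (Cilp) and lubricin, which coats the joint surface and is also made by synovium (Prg4).

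Signals below are array intensities scaled to a common level. A floor of 93.2, the mean of the 3 array medians, stood in for detection calls, and "higher" and "lower" counts below take ratios of 2-fold or more. A gene's brightest probe set is the one whose log2 signal has the highest mean over the arrays. All 10 genes lay above the floor on all 3 arrays by their brightest probe set. The arrays carried 65, 114 and 113 probe sets at a signal of 25000 or more in PDGFRa(+) Sca-1(+), PDGFRa(+) Sca-1(-) and PDGFRa(-) Sca-1(-) cells, at most 0.253% of all, and 2, 4 and 4 of the 10 genes were among them. Signals that high may lie near saturation. A small ratio between such signals has no exact size, and a large fold against one could be a lower bound. The Pdgfra signal was 12846, 2420 and 586 in the same order. Ptprc (CD45) and Pecam1 (CD31) were under the floor on all 3 arrays, and the Sca-1 gene was not analysed here. The 3' over 5' signal ratio of Actb, a measure of RNA integrity and amplification, was 4.65 on the PDGFRa(+) Sca-1(+) array, against 2.62 and 2.99 on the PDGFRa(+) Sca-1(-) and PDGFRa(-) Sca-1(-) arrays, and that of Gapdh was 4.73, against 3.54 and 3.93. The part of this in the ratios below was not tested.

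The comparison of PDGFRa(+) Sca-1(+) with PDGFRa(+) Sca-1(-) cells asks what goes with Sca-1 among PDGFRa(+) cells. It does not hold Pdgfra constant, since the Pdgfra signal was 5.31-fold higher in PDGFRa(+) Sca-1(+) cells. Of the 10 genes, 7 were at least 2-fold lower in PDGFRa(+) Sca-1(+) cells, 1 was higher and 2 were within 2-fold. Over all 11855 genes compared, 11.3% were lower and 14.9% higher, 26.2% in either direction. The median log2 ratio was -4.03 for the 10 genes and 0.07 for all genes. The 10 genes are brighter than most, so the share was also taken, after the data were seen, over the 588 genes with a signal of 10000 or more on at least 1 of these arrays. Of those, 17.3% were lower and 16.5% higher, 33.8% in either direction. In bulk RNA, fewer cells of a type and less RNA per cell cannot be told apart.

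**Figure D1:**
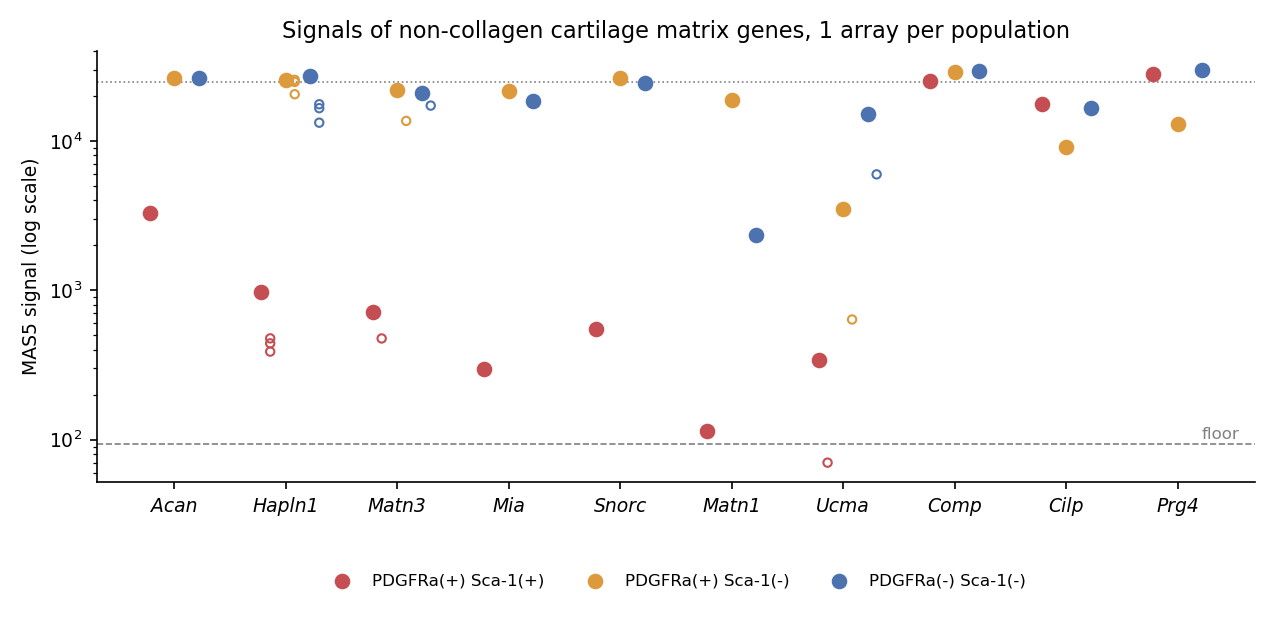
MAS5 signal (log scale) of the 10 genes on the 3 arrays, with 1 array per population; large filled points are the brightest probe set of each gene, small open points its other probe sets, the dashed line the floor of 93.2 and the dotted line a signal of 25000. The 7 genes on the left are lower in PDGFRa(+) Sca-1(+) cells than in either other population, and Comp, Cilp and Prg4 are bright in all 3 populations.

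The first group holds 5 genes that were lower in PDGFRa(+) Sca-1(+) cells and close to equal in the Sca-1(-) populations. Acan had a signal of 3317 in PDGFRa(+) Sca-1(+) cells, 26263 in PDGFRa(+) Sca-1(-) cells and 26620 in PDGFRa(-) Sca-1(-) cells. Aggrecan transcript was thus 7.92-fold lower in PDGFRa(+) Sca-1(+) than in PDGFRa(+) Sca-1(-) cells, where its signal stood near the top of the range. Its signal in PDGFRa(+) Sca-1(+) cells was still high, with 5.29% of probe sets on that array above it. Hapln1 had signals of 975, 25572 and 27071 in the same order by its brightest probe set. Its ratio of PDGFRa(+) Sca-1(+) over PDGFRa(+) Sca-1(-) cells was 26.2-fold lower by that probe set, and 46.6-fold, 53.8-fold and 63.9-fold lower by the other 3. All 4 Hapln1 probe sets therefore gave the same direction, and the brightest gave the smallest ratio.

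Matn3 had signals of 719, 21846 and 20991 in PDGFRa(+) Sca-1(+), PDGFRa(+) Sca-1(-) and PDGFRa(-) Sca-1(-) cells. Its 2 probe sets put it 30.4-fold and 28.6-fold lower in PDGFRa(+) Sca-1(+) than in PDGFRa(+) Sca-1(-) cells. Mia had signals of 297, 21522 and 18566 and was 72.4-fold lower. Snorc had signals of 553, 26358 and 24513 and was 47.7-fold lower. The folds of Acan, Hapln1 and Snorc are set against PDGFRa(+) Sca-1(-) signals over 25000. Against PDGFRa(-) Sca-1(-) cells the ratios of the 5 genes were of like size, from 8.02-fold lower for Acan to 62.4-fold lower for Mia.

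Matn1 and Ucma were also lower in PDGFRa(+) Sca-1(+) cells, but they differed in opposite directions between the Sca-1(-) populations. Matn1 had a signal of 115 in PDGFRa(+) Sca-1(+) cells, just above the floor, 18704 in PDGFRa(+) Sca-1(-) cells and 2331 in PDGFRa(-) Sca-1(-) cells. It was 163-fold lower in PDGFRa(+) Sca-1(+) than in PDGFRa(+) Sca-1(-) cells, the largest measured ratio among the 10 genes, and 20.3-fold lower than in PDGFRa(-) Sca-1(-) cells. Ucma had signals of 341, 3482 and 15138 in PDGFRa(+) Sca-1(+), PDGFRa(+) Sca-1(-) and PDGFRa(-) Sca-1(-) cells by its brighter probe set. The other Ucma probe set had signals of 70.2, 638 and 5980. The first of these lies under the floor, so that probe set gives only a bound, at least 6.85-fold lower in PDGFRa(+) Sca-1(+) than in PDGFRa(+) Sca-1(-) cells, against 10.2-fold by the brighter one. The order of the populations is the same by both Ucma probe sets, and it is not the order of Matn1.

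The sequence just before the RefSeq start site (mouse build GRCm38.p6) is shown for Matn1 and Ucma, whose patterns differ, and for Mia, the gene with the largest measured ratio among the 5 that were near equal in the Sca-1(-) populations. Each window holds 250 bases, 5′ to 3′ on the gene's strand. Capitals mark CAAAG and CAATG on either strand, the core letters recognised by SOX factors such as SOX9.
Matn1: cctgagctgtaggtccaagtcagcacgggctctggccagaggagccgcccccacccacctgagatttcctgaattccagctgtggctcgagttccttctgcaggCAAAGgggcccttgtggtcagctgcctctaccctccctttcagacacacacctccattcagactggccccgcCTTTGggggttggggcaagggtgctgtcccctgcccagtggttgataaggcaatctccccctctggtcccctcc
Ucma: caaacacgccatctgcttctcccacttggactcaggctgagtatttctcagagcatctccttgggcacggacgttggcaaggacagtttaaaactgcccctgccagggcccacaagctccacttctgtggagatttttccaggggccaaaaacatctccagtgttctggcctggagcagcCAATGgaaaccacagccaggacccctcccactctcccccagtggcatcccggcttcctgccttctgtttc
Mia: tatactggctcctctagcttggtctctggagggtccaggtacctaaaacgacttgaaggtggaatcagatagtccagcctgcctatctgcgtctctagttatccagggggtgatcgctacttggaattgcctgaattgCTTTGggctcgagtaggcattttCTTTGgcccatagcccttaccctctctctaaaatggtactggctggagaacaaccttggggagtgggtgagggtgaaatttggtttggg
The windows are chr4:130944135-130944384 (plus strand) for Matn1, chr2:4975872-4976121 (plus strand) for Ucma and chr7:27181150-27181399 (minus strand) for Mia. A window was found for 7 of the 10 genes, and Comp, Snorc and Prg4 had none. The SOX core letters stood in 4 of the 7 windows (Matn1, Matn3, Mia and Ucma), and in 65.0% of all 32851 windows of this length. TGTGGT on either strand, the core letters of RUNX factors, stood in 4 of the 7 (Hapln1, Matn1, Cilp and Ucma) and in 14.0% of all windows. The motifs can share CA or TG at their ends. Matn1 and Ucma, which went opposite ways, held both. Matches of such short letters describe the sequence and do not show a bound site.

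The comparison of PDGFRa(+) Sca-1(-) with PDGFRa(-) Sca-1(-) cells asks what goes with PDGFRa among Sca-1(-) cells. Of the 10 genes, 1 was at least 2-fold higher in PDGFRa(+) Sca-1(-) cells, 2 were lower and 7 were within 2-fold. Their log2 ratios had a median of -0.02, against -0.03 over all genes. Over all 11675 genes compared, 4.82% were higher and 5.63% lower, 10.4% in either direction. Over the 519 genes with a signal of 10000 or more on at least 1 of these arrays, 5.01% were higher and 4.05% lower, 9.06% in either direction. Matn1 was 8.03-fold higher in PDGFRa(+) Sca-1(-) cells, at 18704 against 2331. Ucma was 4.35-fold lower in PDGFRa(+) Sca-1(-) cells by its brighter probe set and 9.37-fold lower by the other. Prg4 was 2.27-fold lower.

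Acan, Hapln1, Matn3, Mia, Snorc and Comp differed little here, with log2 ratios of PDGFRa(+) Sca-1(-) over PDGFRa(-) Sca-1(-) cells from -0.08 to 0.21 by their brightest probe sets. Most of these signals stood near the top of the range. For Hapln1 the brightest probe set gave -0.08 on the log2 scale, but the other 3 gave 0.50, 0.63 and 0.63, all higher in PDGFRa(+) Sca-1(-) cells. Matn3 had 0.06 and -0.34 by its 2 probe sets. The scatter (SD) of log2 ratios between probe sets of the same gene was 0.37 in this comparison, over 4548 genes.

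**Figure D2:**
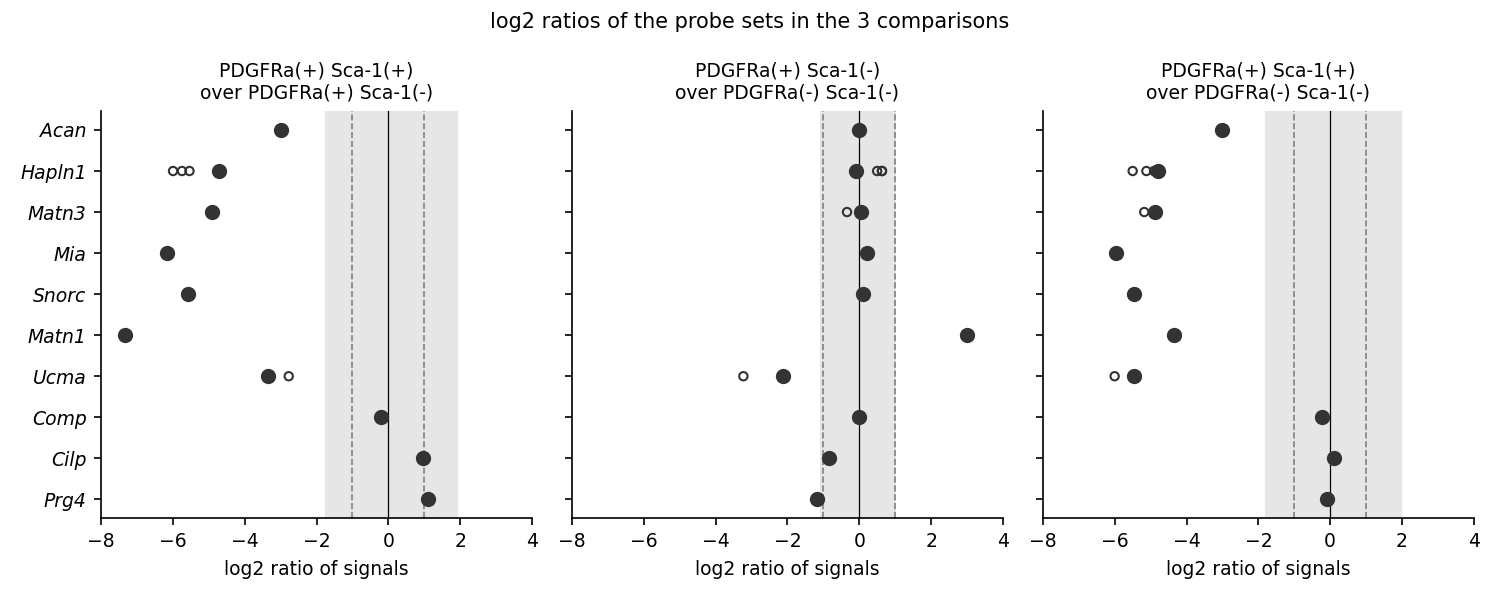
log2 ratio of signals of each probe set in the 3 comparisons; filled points are the brightest probe set of a gene, open points the others, dashed lines 2-fold and the grey band the 5th to 95th percentile of all genes. For PDGFRa(+) Sca-1(+) over PDGFRa(+) Sca-1(-) cells 7 genes lie left of the band, while for PDGFRa(+) Sca-1(-) over PDGFRa(-) Sca-1(-) cells Matn1 lies right of it, and Ucma, at -2.12, and Prg4, at -1.18, left of it; the open Ucma points for PDGFRa(+) Sca-1(+) cells are bounds.

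The comparison of PDGFRa(+) Sca-1(+) with PDGFRa(-) Sca-1(-) cells sets apart the populations that differ in both markers. The same 7 genes were at least 2-fold lower in PDGFRa(+) Sca-1(+) cells, 0 were higher and 3 were within 2-fold. Their log2 ratios had a median of -4.57, against 0.03 over all genes. Over all 11843 genes compared, 12.2% were lower and 14.5% higher, 26.6% in either direction. Over the 575 genes at 10000 or more on at least 1 of these arrays, 15.5% were lower and 17.4% higher, 32.9% in either direction. This comparison shares its PDGFRa(+) Sca-1(+) array with the first, so it is not separate evidence. Ucma was 44.4-fold lower by its brighter probe set and at least 64.2-fold lower by the other.

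Comp, Cilp and Prg4 formed the third pattern, bright in all 3 populations. Comp had signals of 25256 in PDGFRa(+) Sca-1(+) cells, 28927 in PDGFRa(+) Sca-1(-) cells and 29358 in PDGFRa(-) Sca-1(-) cells. The highest and lowest differ by 1.16-fold, and all lie among the brightest 0.135% of probe sets on their array. Cilp had signals of 17737, 9173 and 16596, and was 1.93-fold higher in PDGFRa(+) Sca-1(+) than in PDGFRa(+) Sca-1(-) cells, just inside the 2-fold limit. Prg4 had signals of 28140, 13077 and 29717, and was 2.15-fold higher in PDGFRa(+) Sca-1(+) than in PDGFRa(+) Sca-1(-) cells. Both genes were lowest in PDGFRa(+) Sca-1(-) cells, and near equal in PDGFRa(+) Sca-1(+) and PDGFRa(-) Sca-1(-) cells, where the ratios were 1.07-fold for Cilp and 1.06-fold for Prg4. Each of the 3 genes rests on 1 probe set.

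Near-equal values mostly came from bright signals. Both signals were 15000 or more for Acan, Hapln1, Matn3, Mia, Snorc and Comp between the Sca-1(-) populations, for Comp, Prg4 and Cilp between PDGFRa(+) Sca-1(+) and PDGFRa(-) Sca-1(-) cells, and for Comp between PDGFRa(+) Sca-1(+) and PDGFRa(+) Sca-1(-) cells. The part of saturation in these ratios was not tested.

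The relatives of the 10 genes differed in direction among themselves. Versican (Vcan), a relative of aggrecan found in many connective tissues, had signals of 14358 in PDGFRa(+) Sca-1(+) cells, 570 in PDGFRa(+) Sca-1(-) cells and 915 in PDGFRa(-) Sca-1(-) cells, 25.2-fold higher in PDGFRa(+) Sca-1(+) than in PDGFRa(+) Sca-1(-) cells where Acan was 7.92-fold lower. Its next brightest probe set gave 25.5-fold. Brevican (Bcan), known from brain, had signals of 102, 554 and 216 by its brighter probe set. By that probe set it was 5.42-fold lower in PDGFRa(+) Sca-1(+) than in PDGFRa(+) Sca-1(-) cells. The other Bcan probe set was under the floor on all 3 arrays, as was neurocan (Ncan). Among the link proteins, Hapln3 had signals of 113, 192 and 528, while Hapln2 lay under the floor and Hapln4 at most at 151.

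Matn2, a matrilin of wider tissue distribution, had signals of 3482, 1594 and 2381 in PDGFRa(+) Sca-1(+), PDGFRa(+) Sca-1(-) and PDGFRa(-) Sca-1(-) cells, 2.18-fold higher in PDGFRa(+) Sca-1(+) than in PDGFRa(+) Sca-1(-) cells. Matn4 had signals of 470, 910 and 1121, within 2-fold between PDGFRa(+) Sca-1(+) and PDGFRa(+) Sca-1(-) cells at 1.94-fold. Of the 4 matrilins, then, Matn1 and Matn3 were lower in PDGFRa(+) Sca-1(+) than in PDGFRa(+) Sca-1(-) cells, 1 was higher and 1 within the limit. Of the thrombospondins, the family of Comp, Thbs4 had signals of 17927, 7391 and 10603, 2.43-fold higher in PDGFRa(+) Sca-1(+) than in PDGFRa(+) Sca-1(-) cells, and Thbs1 had 457, 2083 and 3562, 4.55-fold lower. Thbs2 and Thbs3 were within 2-fold between those arrays. Cilp2 had signals of 465, 467 and 1206. Of the MIA proteins, Mia3, a widely expressed secretory pathway protein, was within 2-fold in every comparison, and Mia2 and Otor were under the floor on all 3 arrays.

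The cartilage collagens followed the first pattern. All 7 of them were at least 2-fold lower in PDGFRa(+) Sca-1(+) than in PDGFRa(+) Sca-1(-) cells, with a median log2 ratio of -4.54, and 6 of the 7 were within 2-fold between PDGFRa(+) Sca-1(-) and PDGFRa(-) Sca-1(-) cells. Col2a1, the main cartilage collagen, had signals of 4096, 26563 and 27518, and Col9a2 had 129, 12559 and 12746. Col10a1, the collagen of hypertrophic cartilage, was the exception: at 272, 24355 and 5071 it was 4.80-fold higher in PDGFRa(+) Sca-1(-) than in PDGFRa(-) Sca-1(-) cells, the direction of Matn1. Of 8 other secreted or membrane proteins of cartilage, 6 were lower in PDGFRa(+) Sca-1(+) than in PDGFRa(+) Sca-1(-) cells and 0 higher, among them chondromodulin (Cnmd, 22.4-fold) and Cytl1 (21.4-fold). Chad sat at the limit with 2.00-fold, and Prelp and Fmod, which are also abundant in other connective tissues, were within 2-fold.

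Of 7 chondrocyte transcription factors compared, 5 were lower in PDGFRa(+) Sca-1(+) than in PDGFRa(+) Sca-1(-) cells and 0 higher. Their median log2 ratio was -2.86. Sox9, which drives cartilage matrix genes, had signals of 754, 6522 and 6285 by its brightest probe set, 8.65-fold lower in PDGFRa(+) Sca-1(+) than in PDGFRa(+) Sca-1(-) cells. A second Sox9 probe set had 632, 6776 and 1877, so the probe sets disagree between the Sca-1(-) populations. Mef2c, a factor of hypertrophic cartilage, had 966, 8184 and 2943. Sox5, a partner of SOX9, had 482, 542 and 2161 by its brightest probe set, but its others put it up to 4.52-fold lower in PDGFRa(+) Sca-1(+) than in PDGFRa(+) Sca-1(-) cells.

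Genes that mark growth plate stages also differed in both directions. Between PDGFRa(+) Sca-1(-) and PDGFRa(-) Sca-1(-) cells, 3 of 8 were at least 2-fold higher in PDGFRa(+) Sca-1(-) cells, 1 lower and 4 within 2-fold. Besides Col10a1, the higher ones were Ihh, made by prehypertrophic chondrocytes (4.64-fold, at 795 against 171), and the collagenase Mmp13 (3.70-fold, at 8225 against 2224). The lower one was the Wnt antagonist Sfrp5, at 168 against 2125. Of 7 osteoblast and osteocyte genes, 4 were also higher in PDGFRa(+) Sca-1(-) cells and 0 lower, with Dmp1 30.3-fold and Alpl 3.08-fold higher. The summed signal of the 6 measured markers of that class was 17999 in PDGFRa(+) Sca-1(+), 98980 in PDGFRa(+) Sca-1(-) and 31246 in PDGFRa(-) Sca-1(-) cells, of which Col1a1, which fibroblasts also make, gave 14417, 25131 and 7476. Without Col1a1 the sums were 3582, 73849 and 23769. The sums of 3 hypertrophic markers (Col10a1, Ihh and Panx3) were 549, 42059 and 16979. Of 3 measured markers of dividing cells the sum was 553, 707 and 4589. The part of these classes in the Matn1 and Ucma differences was not tested.

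**Figure D3:**
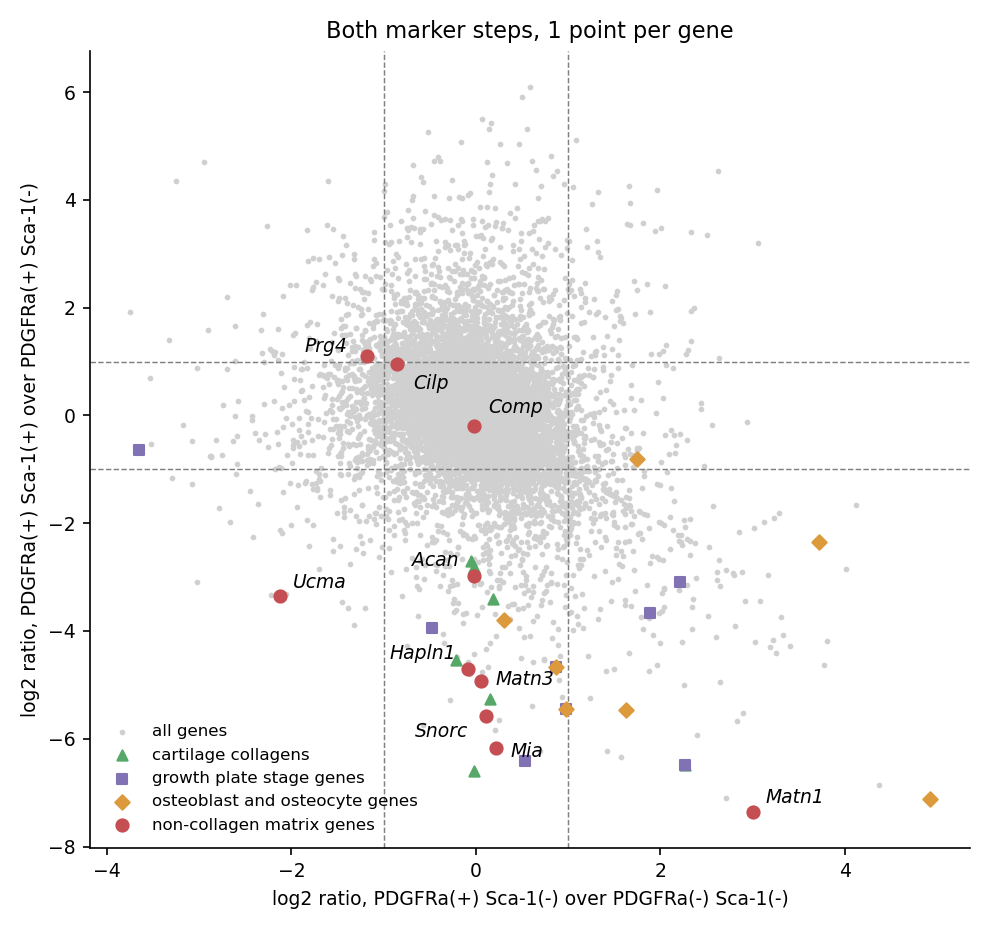
log2 ratio of PDGFRa(+) Sca-1(+) over PDGFRa(+) Sca-1(-) cells (vertical axis) against that of PDGFRa(+) Sca-1(-) over PDGFRa(-) Sca-1(-) cells (horizontal axis), 1 point per gene, with dashed lines at 2-fold. The axes share the PDGFRa(+) Sca-1(-) array, so points tend to run from upper left to lower right; Matn1 lies at the lower right with hypertrophic and osteoblast genes, Ucma at the lower left, and Prg4 and Cilp at the upper left.

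Genes that build and sulfate the aggrecan chains were lower in PDGFRa(+) Sca-1(+) than in PDGFRa(+) Sca-1(-) cells for 7 of 10 compared and higher for 0. Their median log2 ratio was -1.62. They included Papss2, which supplies activated sulfate (6.82-fold), and the chondroitin sulfotransferase Chst11 (6.17-fold). Chst11 had signals of 2045, 12627 and 26145 in PDGFRa(+) Sca-1(+), PDGFRa(+) Sca-1(-) and PDGFRa(-) Sca-1(-) cells and Slc26a2, a sulfate transporter, 835, 3146 and 6746. By these brightest probe sets both were also at least 2-fold lower in PDGFRa(+) Sca-1(-) than in PDGFRa(-) Sca-1(-) cells. Another probe set of each was within 2-fold there, at 342 against 447 for Chst11 and 234 against 325 for Slc26a2. The remaining Slc26a2 probe set was 2.18-fold lower. Ugdh, which makes a sugar precursor used in many cells, was within 2-fold in every comparison. For hyaluronan, to which aggrecan binds, the synthase Has1 had signals of 11828, 869 and 1693, 13.6-fold higher in PDGFRa(+) Sca-1(+) than in PDGFRa(+) Sca-1(-) cells. Has2 and the receptor Cd44 were within 2-fold.

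Of 9 genes for matrix proteases and an inhibitor, 4 were higher and 3 lower in PDGFRa(+) Sca-1(+) than in PDGFRa(+) Sca-1(-) cells. Of the ADAMTS proteases, Adamts4 (1077 against 239) and Adamts5 (4614 against 1153) were higher, as was Adamts15 (at least 5.74-fold), and Htra1 was 2.54-fold higher at 19951 against 7843. Adamts9 was 2.53-fold lower, at 246 against 623, though its other probe sets were within 2-fold, and Adamts1 was within 2-fold. Htra1 followed Prg4 and Cilp, with 16194 in PDGFRa(-) Sca-1(-) cells. Mmp13 was 12.7-fold and the inhibitor Timp3 2.04-fold lower in PDGFRa(+) Sca-1(+) than in PDGFRa(+) Sca-1(-) cells. The other Timp3 probe sets gave 2.09-fold, 4.66-fold and 11.0-fold lower. Against PDGFRa(-) Sca-1(-) cells the lists stood much alike: 7 of 7 collagens, 7 of 8 other secreted or membrane proteins, 6 of 7 transcription factors and 6 of 11 chain synthesis genes were lower in PDGFRa(+) Sca-1(+) cells, with 0 higher in each.

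**Figure D4:**
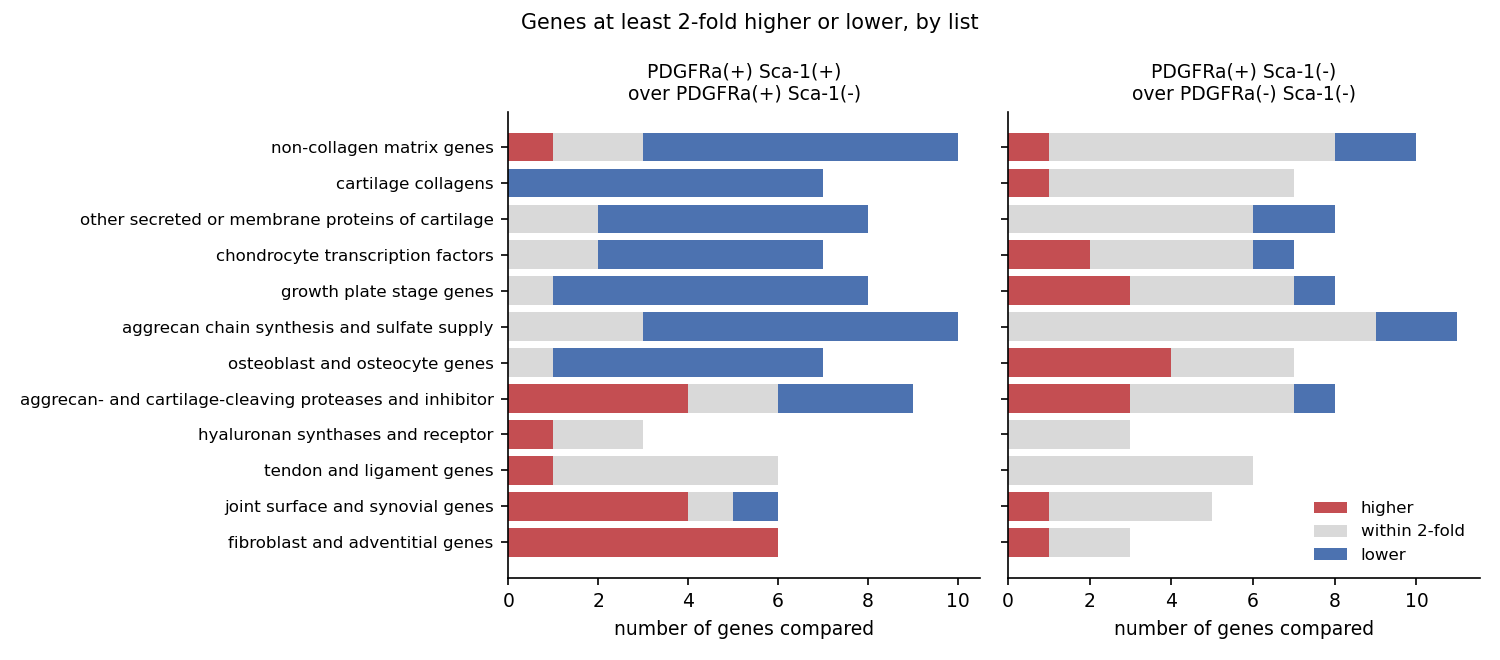
Number of genes at least 2-fold higher, within 2-fold or at least 2-fold lower, by list, for PDGFRa(+) Sca-1(+) over PDGFRa(+) Sca-1(-) cells (left) and PDGFRa(+) Sca-1(-) over PDGFRa(-) Sca-1(-) cells (right); the 10 genes are left out of the other lists. On the left 7 of 10 non-collagen matrix genes and all 7 cartilage collagens are lower, and all 6 fibroblast genes are higher.

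Other cell types were read from marker lists beside these results. The 5 chondrocyte markers (Col2a1, Col9a1, Col9a2, Col11a2, Sox9) were above the floor on every array, with summed signals of 10328 in PDGFRa(+) Sca-1(+), 94099 in PDGFRa(+) Sca-1(-) and 94023 in PDGFRa(-) Sca-1(-) cells. The part of this difference in the ratios of the 7 genes was not tested. Of 6 fibroblast markers, 6, 3 and 2 were above the floor, with sums of 60369, 2915 and 724. Of 6 joint surface and synovial genes, 4 were higher and 1 lower in PDGFRa(+) Sca-1(+) than in PDGFRa(+) Sca-1(-) cells. Cd55 was 16.4-fold and Creb5 5.82-fold higher by their brightest probe sets. The other Creb5 probe sets disagreed, at 3.07-fold higher, at least 1.10-fold higher and 1.45-fold lower. Erg and Gdf5, however, were under the floor in PDGFRa(+) Sca-1(+) cells, and all 4 Clic5 probe sets were under it in the other populations. The summed signal of 4 joint markers (Creb5, Erg, Gdf5 and Clic5) was 2896, 1316 and 1160. Without Creb5 it was 399, 886 and 724, lowest in PDGFRa(+) Sca-1(+) cells. That sum takes Clic5 at 283 in PDGFRa(+) Sca-1(+) cells, by its brightest probe set over the arrays. The other Clic5 probe sets had 1641, 923 and 8.79 there, so the order without Creb5 depends on the probe set. Of 6 tendon and ligament genes, 1 (Thbs4) was higher in PDGFRa(+) Sca-1(+) than in PDGFRa(+) Sca-1(-) cells. The other 5, Fmod among them, were within 2-fold by their brightest probe sets. The 4 tendon markers were above the floor on every array, with sums of 7322, 4497 and 4636. The 3 measured blood markers, Ptprc among them, and the endothelial Pecam1, Cdh5 and Emcn were under the floor on all 3 arrays. The fourth endothelial marker, Kdr, had signals of 155, 110 and 67.1, above the floor in PDGFRa(+) Sca-1(+) and PDGFRa(+) Sca-1(-) cells. The part of fibroblast, tendon or joint cells in the Comp, Cilp and Prg4 signals was not tested.

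The genes most alike in pattern were found by the distance between log2 signals on the 3 arrays, each gene centred on its own mean, among 9742 other genes above the floor on every array. With 3 arrays a pattern is only a pair of ratios, so close neighbours say little where they are many. Matn1 and Ucma had 1 gene each within a distance of 0.5. For Matn1 this was the carbonic anhydrase Car3, with signals of 188, 25816 and 3932 in PDGFRa(+) Sca-1(+), PDGFRa(+) Sca-1(-) and PDGFRa(-) Sca-1(-) cells, followed by Col10a1 and the coagulation factor F5. For Ucma it was Serpina1b, a protease inhibitor of a family of near-identical genes, with 376, 3739 and 15638, followed by Meltf and Trpv4. Acan lay closest to Sox9 by its brightest probe set, then Mgat4a and Mboat2, among 67 genes within 0.5. A second Sox9 probe set was 3.61-fold higher in PDGFRa(+) Sca-1(-) than in PDGFRa(-) Sca-1(-) cells, where Acan was near equal.

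Hapln1 lay closest to Fam89a, Col9a3 and Cnmd, and Matn3 to Fam89a, Col11a2 and Scarb1. Mia lay closest to Panx3, Prkg2 and Susd5, and Snorc to Susd5, Prkg2 and Col11a2. The median pattern of the 10 genes lay closest to Cytl1, Nt5e and Cnmd. Comp had 4027 genes within 0.5 (nearest Snx3, Tom1l2 and Psma1), Cilp 1332 (Slf2, Prkar2a and Fam168a) and Prg4 533 (Adam22, Pdia4 and P3h3), so their nearest genes are a few of many.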

How the data were processed

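The deposited intensity values are linear signals per probe set, made with MAS5 per the submitters' processing notes. Its version, any detection calls and any filter: not given in the sources used here. The authors' deposited intensity values ran from 0.1 to 42073.9, and their 2% trimmed mean was 500 on each array, so they had been scaled before deposition.

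Here, 64 control probe sets were set aside and the other 45037 rescaled to a common 2% trimmed mean. Signals under the floor of 93.2 were raised to it and log2 was taken. Of the probe sets, 34945 had 1 symbol in the platform annotation, 932 several and 9160 none; only the first were used. Of them, 34741 matched the RefSeq gene table (GRCm38.p6, names only) by gene number. Each gene was represented by its brightest probe set. A gene under the floor on 1 array gives a bound ("at least"), under it on both it was not compared. The named genes are the 10, every gene of the companion lists, the gate genes and, per pattern, the 3 nearest genes. The 10 genes and the lists were chosen with earlier results of these data known. Pthlh, Xylt1 and Bglap lacked a usable probe set and were not analysed here. Promoter windows are the first 250 of the bases in RefSeq's table. Python 3.11.15, numpy 2.4.6, pandas 2.3.3, scipy 1.17.1 and matplotlib 3.10.9 were used.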

Additional observations from a re-analysis of the deposited data

How the results depend on the processing

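The counts and medians of the 10 genes were recomputed under 9 alternatives: the mean over probe sets, the floor at the 33rd or 67th percentile, log2(signal + 32) with no floor, quantile normalization, the values as deposited, only genes above the floor on both arrays, a 3-fold threshold and, added after the data were seen, the dimmest probe set above the floor. Under all of them 7 genes stayed lower in PDGFRa(+) Sca-1(+) than in PDGFRa(+) Sca-1(-) cells and 7 lower than in PDGFRa(-) Sca-1(-) cells. With quantile normalization 2 genes (Prg4 and Cilp) were higher in PDGFRa(+) Sca-1(+) than in PDGFRa(+) Sca-1(-) cells in place of 1. At 3-fold 0 were higher, and 1 in place of 2 was lower in PDGFRa(+) Sca-1(-) than in PDGFRa(-) Sca-1(-) cells. With the floor at the 67th percentile, a signal of 255.8, the median log2 ratio of PDGFRa(+) Sca-1(+) over PDGFRa(-) Sca-1(-) cells was -3.99 in place of -4.57, and Matn1 became a bound. Of 270 values of single genes, 102 could not change by construction (the threshold, the filter, or another probe set for a gene with 1). Many of the other 168 were fixed or nearly so as well. The floor at the 33rd percentile could change none, because all 10 genes lay above the main floor on every array. The floor at the 67th percentile could change only Matn1, at 115 in PDGFRa(+) Sca-1(+) cells. The values as deposited differ from the scaled ones only by a factor close to 1 per array. The counts that follow include these values and so overstate how stable the results are. Of the 168, 158 moved by less than the scatter between probe sets, 10 moved by more and 0 changed sign after a 2-fold call. Among these, Ucma was -3.23 in place of -2.12 for PDGFRa(+) Sca-1(-) over PDGFRa(-) Sca-1(-) cells by its dimmest probe set, and Hapln1 0.42 in place of -0.08 by the mean over its probe sets. Over all genes, 563 were higher and 657 lower in PDGFRa(+) Sca-1(-) than in PDGFRa(-) Sca-1(-) cells, against 365 and 388 with the floor at the 67th percentile, 367 and 406 with the mean over probe sets and 202 and 190 at 3-fold. For PDGFRa(+) Sca-1(+) over PDGFRa(+) Sca-1(-) cells the counts were 1763 and 1340, against 841 and 693 at 3-fold, and for PDGFRa(+) Sca-1(+) over PDGFRa(-) Sca-1(-) cells 1713 and 1443, against 846 and 714 at 3-fold. The scatter between probe sets (SD of log2 ratios) was 0.60 for PDGFRa(+) Sca-1(+) over PDGFRa(+) Sca-1(-) and 0.50 for PDGFRa(+) Sca-1(+) over PDGFRa(-) Sca-1(-) cells. No paired analysis was possible because each population had 1 array. Leaving out a replicate was not possible for the same reason.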
